A study of Homo sapiens with 4 samples.

Results

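The 22q11.2 deletion region is an interval of chromosome 22 whose genes are lost together in a recurrent human microdeletion, and 35 of its genes are described here in HEK293 cells that lack THUMPD1. The 35 genes were chosen by name, as genes of that interval, and the interval was selected on the lower level of chromosome 22 genes in these same libraries, so the difference between genotypes in these genes is a description and carries no test. Of the 35 genes, 32 were among the 18917 genes of the count table and 27 passed the filter of at least 1 CPM (read counts scaled to libraries of equal size) in at least 2 of the 4 libraries. RNA was sequenced from WT cells and from THUMPD1 KO cells, 2 libraries per genotype. Both genotypes are the human embryonic kidney line that the labels call HEK293 and the study's methods call HEK-293T, grown in DMEM with 10% FBS and 2 mM glutamine. The KO was made with CRISPR-Cas9 from a pair of guides against THUMPD1, which encodes the adaptor that NAT10 needs to place N4-acetylcytidine on tRNA, and edited cells passed through single-cell sorting. The difference between genotypes therefore cannot be told apart from a difference between cell clones. The labels do not say that the 2 replicates of a genotype were separate cultures, so p-values measure the spread between these libraries, which may be technical.

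Chromosome 22 carries blocks of low copy repeats on its long arm, named A to D, and misaligned exchange between them in meiosis deletes the DNA in between. Loss of 1 copy causes DiGeorge or velocardiofacial syndrome, with defects of the heart outflow tract, thymus, parathyroid and palate and a raised risk of schizophrenia. TBX1, a T-box transcription factor of the pharyngeal arches, CRKL, an adaptor in growth factor signalling, and DGCR8, a subunit of the microRNA Microprocessor, are its best known dosage-sensitive genes.

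The promoters of the members had a high median GC content, and 3 stretches are printed. They were picked by fold change: KLHL22, SNAP29 and PI4KA are among the members with small differences between genotypes and TBX1 among those with large ones. All are RefSeq sequence of GRCh38.p14, and capitals mark each GC box (GGGCGG or its complement CCGCCC). The first lies between the RefSeq start sites of SNAP29 and PI4KA, which are also those of their canonical GENCODE 44 transcripts, at chr22:20858812-20859006, 195 bases of the plus strand with a GC content of 72.8% and 2 GC boxes. Another GENCODE transcript of PI4KA starts further upstream, inside SNAP29, so that the annotated PI4KA gene spans this stretch. The second is the 250 bases before the RefSeq start of TBX1 at chr22:19756453-19756702, plus strand, with a GC content of 62.0% and no GC box. The canonical GENCODE transcript of TBX1 starts further downstream. The third is 201 bases before the most upstream GENCODE start of KLHL22 at chr22:20495845-20496045, minus strand, with a GC content of 79.6% and 5 GC boxes. The annotated MED15 gene, on the plus strand, starts at 20495913, so part of this stretch lies inside MED15.
SNAP29 and PI4KA: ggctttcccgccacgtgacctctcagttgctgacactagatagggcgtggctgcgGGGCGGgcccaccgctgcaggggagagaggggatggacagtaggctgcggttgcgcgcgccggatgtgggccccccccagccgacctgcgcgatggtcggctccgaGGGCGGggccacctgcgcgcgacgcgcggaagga
TBX1: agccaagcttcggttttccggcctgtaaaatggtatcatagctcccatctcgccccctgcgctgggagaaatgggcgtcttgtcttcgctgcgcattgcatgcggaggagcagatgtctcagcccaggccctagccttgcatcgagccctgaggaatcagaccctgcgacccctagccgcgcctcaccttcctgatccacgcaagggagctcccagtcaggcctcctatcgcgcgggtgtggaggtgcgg
KLHL22: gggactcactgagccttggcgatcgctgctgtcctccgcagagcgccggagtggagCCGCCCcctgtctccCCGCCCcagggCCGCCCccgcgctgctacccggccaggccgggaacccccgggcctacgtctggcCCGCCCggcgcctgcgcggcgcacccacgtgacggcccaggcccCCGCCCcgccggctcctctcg
RefSeq promoters, from 250 bases before the start to 50 after it, were matched for 28 of the 35 members. A GC box on either strand was present in 24 of them (85.7%), against 48.3% of the 27305 genes with a promoter sequence. Those genes were not limited to expressed ones. A CCAAT box was present in 8 (28.6%, against 39.7%) and a TATA box, TATAAA, in 2 (7.14%, against 14%). The median GC content was 75% in the members' promoters and 58.3% in those of all these genes. These matches describe letters in the windows and show no binding.

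THUMPD1 itself was counted 356 and 468 times in WT and 71 and 58 times in KO. In WT it stood at 44.5 ± 2.71 CPM, against 5.78 ± 0.485 CPM in KO (mean ± SD, n = 2 each), a log2 fold change of -2.94 (SE 0.17, Benjamini-Hochberg adjusted p = 1.26e-12 by the quasi-likelihood test of edgeR). The libraries held 7875722 to 11362363 counts in genes. Of the markers of the line, VIM stood at 313 CPM in WT and 338 CPM in KO and PAX2 at 6.55 and 7.25 CPM. Others differed between the genotypes: NEFM fell from 181 to 24.7 CPM (edgeR adjusted p = 4.06e-18), while LHX1 rose from 0.664 to 2.86 CPM (0.0138) and NEFL from 60.4 to 76.5 CPM (0.00903). Of markers of other cells, HBB had 0 counts in every library and the leukocyte gene PTPRC at most 5, while COL1A1 stood at 23.0 CPM in WT and 19.9 CPM in KO. Between the genotypes, 1154 of 13128 genes tested were higher in KO (8.79%) and 1594 lower (12.1%), together 20.9%. Lower genes were 58.0% of the calls with TMM scaling and 35.8% when library size alone was used. Without KO replicate 1, the number of genes called was 1620 in place of 2748.

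All 27 tested members were lower in KO than in WT. The median log2 fold change was -0.45, with quartiles of -0.57 and -0.31, and KO stood at 73.2% of WT at the median. The range ran from -0.92 in PRODH, where KO was 52.8% of WT, to -0.16 in KLHL22, where KO was 89.8% of WT. Both KO libraries lay below both WT libraries in 27 of 27 members, against 30.0% of all genes tested. The fit on all genes called 22 of the 27 lower and 0 higher, against 12.1% lower and 8.79% higher of all genes tested. PRODH, TXNRD2, TANGO2, RTN4R and KLHL22 were not called. Since this contrast chose the members, nothing is read from these counts. In RNA from a bulk culture, fewer cells that express a gene and less of its RNA per cell cannot be told apart. Without KO replicate 1, or with library size alone in place of TMM, 14 members were called lower.

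**Figure D1:**
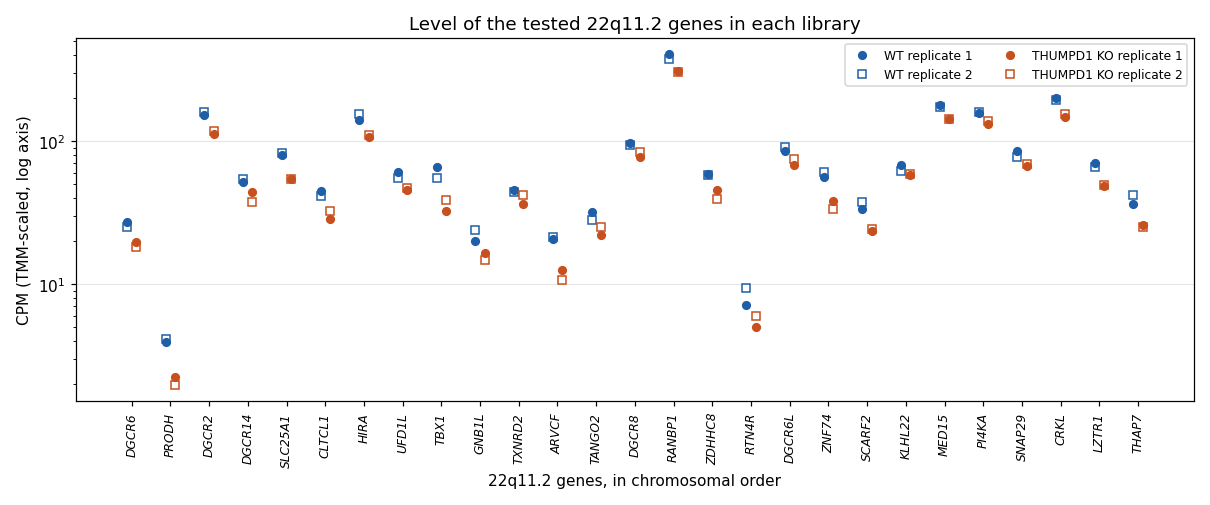
Level of the 27 tested members of the 22q11.2 region in each library, in TMM-scaled CPM on a log axis, with genes in chromosomal order. Circles and squares are replicates 1 and 2, blue is WT and orange THUMPD1 KO, and in each gene both KO points lie below both WT points.

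The members of the transcription, chromatin and RNA group had a median log2 fold change of -0.44 over 7 genes tested. TBX1 stood furthest down in this group. It had 66.2 and 55.0 CPM in WT and 32.4 and 38.7 CPM in KO, a log2 fold change of -0.76 (SE 0.12). The WT libraries were higher and the genotypes did not overlap. On the log2 scale, though, the WT replicates of TBX1 differed by more than those of any other tested member apart from RTN4R. ZNF74, a KRAB zinc-finger protein gene, had 55.9 and 60.8 CPM in WT and 38.2 and 33.6 CPM in KO, a log2 fold change of -0.70 (SE 0.11). THAP7, which encodes a repressor that binds histone tails, had 36.2 and 41.9 CPM in WT and 25.8 and 25.2 CPM in KO (log2 fold change -0.62, SE 0.13). These 3 genes kept a smaller proportion of the WT level than the median member.

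HIRA encodes the chaperone that deposits histone H3.3 outside DNA replication. It had 140 and 154 CPM in WT and 107 and 110 CPM in KO, and its log2 fold change of -0.44 (SE 0.08) lay next to the members' median. HIRA overlaps C22orf39 on the same strand over 96083 bases in GENCODE 44, so reads may be shared between them. DGCR14, listed in GENCODE as ESS2 and tied to the spliceosome, had 51.5 and 54.5 CPM in WT and 43.8 and 37.4 CPM in KO (log2 fold change -0.38, SE 0.11).

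MED15 encodes a tail subunit of Mediator, the complex that links activators to RNA polymerase II. It had 180 and 174 CPM in WT and 143 and 142 CPM in KO, a log2 fold change of -0.31 (SE 0.07). DGCR8 had 97.2 and 93.7 CPM in WT and 77.6 and 83.6 CPM in KO, a log2 fold change of -0.24 (SE 0.08). DGCR8 was the least lowered gene of the group, at 84.5% of WT. Its call was lost with library size alone, with DESeq2, with limma-voom and with upper quartile scaling. Some fits with 1 library left out, such as that without KO replicate 1, lost it too. GSC2, a homeobox gene, had 0 counts in every library, which allows up to 0.259 to 0.391 CPM, the level of 3 counts in a library.

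In the mitochondrial and metabolic group the 4 tested genes had a median of -0.47. SLC25A1 encodes the citrate carrier of the inner mitochondrial membrane, which feeds cytosolic acetyl-CoA. It had 80.6 and 82.4 CPM in WT and 54.3 and 54.4 CPM in KO, a log2 fold change of -0.58 (SE 0.09). Its replicates lay closer together than those of most members, and KO was 66.6% of WT. TXNRD2, the mitochondrial thioredoxin reductase, had 45.7 and 44.2 CPM in WT and 36.1 and 42.0 CPM in KO, a log2 fold change of -0.20 (SE 0.12). TANGO2, a gene whose loss causes metabolic crises, had 32.1 and 28.0 CPM in WT and 21.9 and 24.9 CPM in KO (log2 fold change -0.36, SE 0.14). In both of these genes the genotypes did not overlap but stood close together. PRODH, the first enzyme of proline breakdown, was measured by 21 to 45 counts per library and its fold change had the widest error of all members, with an SE of 0.44. PRODH has near-identical copies on chromosome 22 and overlaps DGCR6 on the opposite strand over 1462 bases, so its counts are uncertain.

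The 3 genes of the ubiquitin pathway had a median of -0.31. LZTR1, a CUL3 adaptor that marks RAS proteins for turnover, had 70.1 and 65.6 CPM in WT and 48.4 and 49.0 CPM in KO, a log2 fold change of -0.48 (SE 0.10). UFD1L, listed in GENCODE as UFD1 and a cofactor of the segregase VCP, had 60.5 and 55.1 CPM in WT and 45.6 and 47.3 CPM in KO (log2 fold change -0.31, SE 0.10). KLHL22, a CUL3 adaptor, had 68.5 and 61.6 CPM in WT and 57.8 and 58.7 CPM in KO, a log2 fold change of -0.16 (SE 0.10). KLHL22 lay closest to no difference of all tested members. The promoter windows of KLHL22 and TBX1 printed above were picked by these fold changes, and they hold 5 GC boxes and none. The windows differ in length (201 and 250 bases), and that of TBX1 lies before the RefSeq start, not the canonical GENCODE start. That of KLHL22 also covers the annotated start of MED15, whose log2 fold change was -0.31. A relation of GC boxes to the fold change was not tested.

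Genes of membrane traffic, phosphoinositide synthesis and nuclear transport had a median of -0.34 over 5 tested. RANBP1, a cofactor of the RAN GTPase cycle, held the most counts of any member. It had 405 and 376 CPM in WT and 309 and 307 CPM in KO, a log2 fold change of -0.34 (SE 0.06). CLTCL1, the clathrin heavy chain of muscle and fat, had 44.6 and 41.5 CPM in WT and 28.3 and 32.5 CPM in KO (log2 fold change -0.50, SE 0.12). ZDHHC8, a palmitoyltransferase, had 58.9 and 58.3 CPM in WT and 45.4 and 39.4 CPM in KO (log2 fold change -0.46, SE 0.11).

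The canonical transcripts of SNAP29 and PI4KA start at either end of the GC-rich stretch printed above, and their fold changes lay close together. SNAP29, a SNARE of autophagosome fusion, had 86.0 and 77.3 CPM in WT and 67.2 and 69.3 CPM in KO, a log2 fold change of -0.25 (SE 0.09). PI4KA, the lipid kinase that makes phosphatidylinositol 4-phosphate at the plasma membrane, had 157 and 159 CPM in WT and 132 and 138 CPM in KO, a log2 fold change of -0.23 (SE 0.07). The annotated genes overlap over 411 bases on opposite strands, and PI4KA has near-identical copies on chromosome 22, so part of their counts could be shared. P2RX6, an ATP-gated channel gene with a near-identical copy, had at most 2 counts in any library.

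Of the remaining genes, which act mostly at the membrane or in signalling, 8 were tested, with a median of -0.47. CRKL had 200 and 193 CPM in WT and 147 and 154 CPM in KO, a log2 fold change of -0.39 (SE 0.07). DGCR2, a transmembrane adhesion receptor, had 152 and 160 CPM in WT and 112 and 117 CPM in KO (log2 fold change -0.45, SE 0.07). In both genes each replicate pair lay within 10 CPM, so the gap between genotypes was wider than the spread within them. ARVCF, a catenin of the p120 family, was the least retained well-measured member, with 20.6 and 21.5 CPM in WT and 12.5 and 10.7 CPM in KO (log2 fold change -0.86, SE 0.18). SCARF2, a scavenger receptor-like gene, had 33.5 and 37.2 CPM in WT and 23.6 and 24.4 CPM in KO (log2 fold change -0.56, SE 0.13). GNB1L, a WD-repeat protein gene, had 19.9 and 23.7 CPM in WT and 16.6 and 14.8 CPM in KO (log2 fold change -0.48, SE 0.17). It overlaps C22orf29 on the same strand over 8759 bases, and C22orf29 had 0 counts. How reads in this overlap were counted is not given, so the 0 does not show that no reads were shared. RTN4R, the Nogo receptor of axons, had only 7.17 and 9.45 CPM in WT and 5.01 and 6.0 CPM in KO (log2 fold change -0.61, SE 0.28).

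DGCR6 and DGCR6L are paralogs at either end of the stretch between repeats A and B, and their canonical transcripts are 93.3% identical over 1172 aligned bases. DGCR6 had 27.1 and 25.2 CPM in WT and 19.8 and 18.3 CPM in KO, a log2 fold change of -0.45 (SE 0.15). DGCR6L had 85.3 and 91.5 CPM in WT and 68.2 and 74.6 CPM in KO, a log2 fold change of -0.31 (SE 0.09). How reads shared by this pair were counted is not given in the sources used here, so the split between them is uncertain. SERPIND1, heparin cofactor II of liver, and SLC7A4, a transporter-like gene, had 0 counts in every library. CLDN5, the claudin of endothelial tight junctions, had 1 count in 1 library. SEPT5, GP1BB and AIFM3 were not analysed here.

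The 27 fold changes were about as even around their median as those of other genes, relative to their errors. Their SD was 0.196 and their median absolute deviation 0.137 on the log2 scale, next to a median SE of 0.107 for a single gene. Of the 27, 19 lay within 0.2 of the median. The interval of 2 SE around the fold change held the members' median in 18 of 27 (66.7%), against 63.0% of 284 other genes of chromosome 22 and 65.6% of all genes tested, each around the median of its own group. The 9 members outside in this edgeR fit were TBX1, ARVCF and ZNF74 below the median and TXNRD2, DGCR8, KLHL22, MED15, PI4KA and SNAP29 above it. This count depends on the errors of the fit. With DESeq2 the interval held the members' median in 24 of 27, and other groups were not counted in that fit. Between replicates of 1 genotype the log2 ratio of CPM over the 27 members had a median of -0.02 in WT (range -0.27 to 0.40) and 0.03 in KO (range -0.23 to 0.26).

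**Figure D2:**
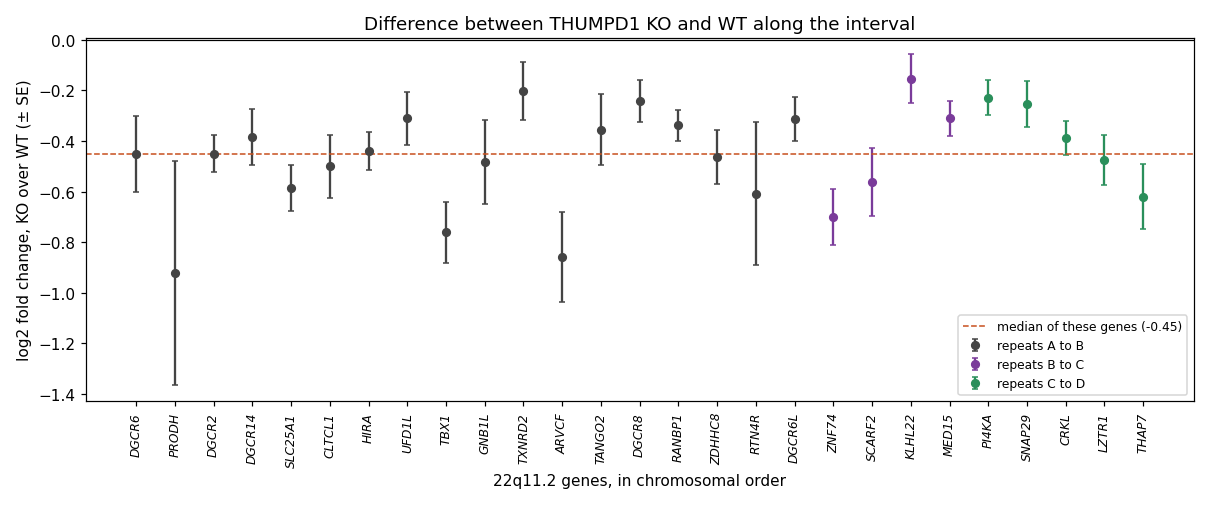
Log2 fold change of KO over WT for the 27 tested members in chromosomal order, with bars of 1 standard error and colours for the 3 stretches between low copy repeats A to D. The dashed line is the members' median of -0.45, and all points lie below 0.

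Fold changes did not run in order along the interval. The annotated members span chr22:18906028-21032840 (GRCh38, GENCODE 44), 2.13 Mb, though the counts themselves carry no coordinates. The median was -0.45 over 18 genes between repeats A and B, -0.44 over 4 between B and C, and -0.39 over 5 between C and D. Each stretch held members on either side of the overall median, as ZNF74 at -0.70 and KLHL22 at -0.16 show between B and C. Over the 27 members, which share their 4 libraries, Spearman's rho of the fold change was 0.23 with position (Pearson's r 0.26) and 0.06 with transcript length (r 0.07).

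GC content and level moved with the fold change. Spearman's rho over the same 27 genes was -0.57 with the GC content of the canonical transcript (Pearson's r -0.52) and 0.54 with the log2 level in WT (r 0.58). TBX1, at 70.3% GC, ARVCF, at 66.0%, and PRODH, at 63.0%, had the 3 lowest fold changes, while UFD1L, SNAP29, RANBP1 and CRKL, at 46.1% to 49.2%, lay above the median. SCARF2, at 71.1% GC, lay at -0.56. The 13 members of lowest GC content had a median of -0.36 and the 13 of highest -0.56. The median GC content was 60.7% in the members, 56.2% in the rest of chromosome 22 and 48.4% in all genes tested. Outside chromosomes 16 and 22, Spearman's rho of fold change with GC content was -0.32 over 12129 genes, and the 2599 genes with a GC content between the members' quartiles (55.6% to 63.9%) had a median of -0.09. The median trend with GC content of those outside genes was then taken off, a setting chosen after seeing the data. The members' median became -0.37, with a range of -0.79 to -0.06. The 284 other tested genes of chromosome 22 had a median of -0.35 after the same step. The part of GC content or level in the members' differences was not tested further.

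**Figure D3:**
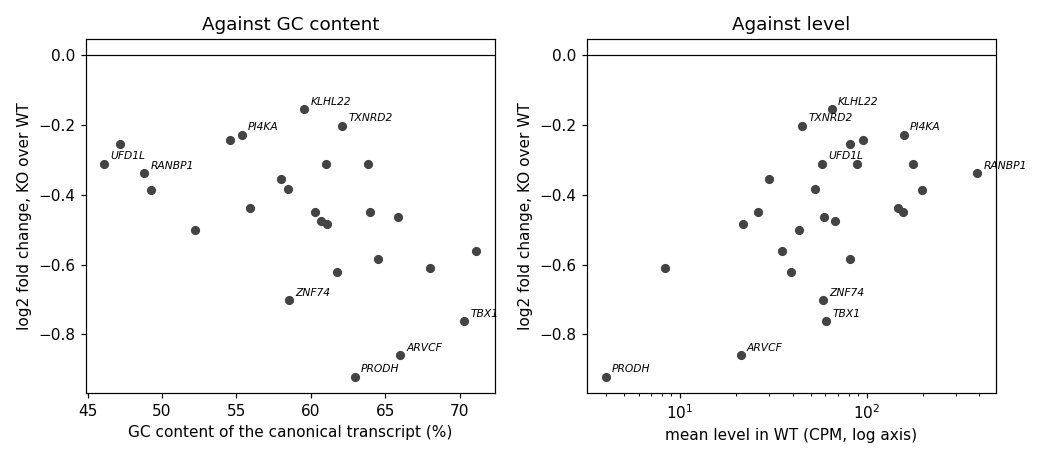
Log2 fold change of KO over WT for the 27 tested members against the GC content of the canonical transcript in percent (left) and against the mean WT level in CPM on a log axis (right). Each point is a gene, and TBX1, ARVCF and PRODH lie low in both panels, with fold changes of -0.76, -0.86 and -0.92.

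Most genes around the members were lower in KO too. The other genes of the interval that were tested had a median of -0.33 over 5 genes. Further along the chromosome the median was -0.55 over 10 genes on the centromeric side, -0.34 over 15 on the telomeric side and -0.41 over the 284 other tested genes of chromosome 22. In windows of 5 Mb along chromosome 22 the median ran from -0.46 to -0.37. Within the rest of the chromosome 89.1% of genes lay below 0. Its median absolute deviation was 0.189 and its SD 0.407, beside 0.137 and 0.196 in the members. Its extremes were MAFF at -2.12 (SE 0.56) and SEZ6L at 2.04 (SE 0.87), both with wide errors. Relative to the errors of single genes the 2 groups were about as even, as given above. The 5 other genes of the interval had an SD of 0.17. A list of 16p11.2 genes, a second recurrent deletion region and on the chromosome that carries THUMPD1, had a median of -0.53 over 21 genes. All genes tested had a median of 0.01, and the 10540 genes outside both chromosomes at levels within the members' range had a median of 0.02 and an SD of 0.369. No test was run between these groups.

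**Figure D4:**
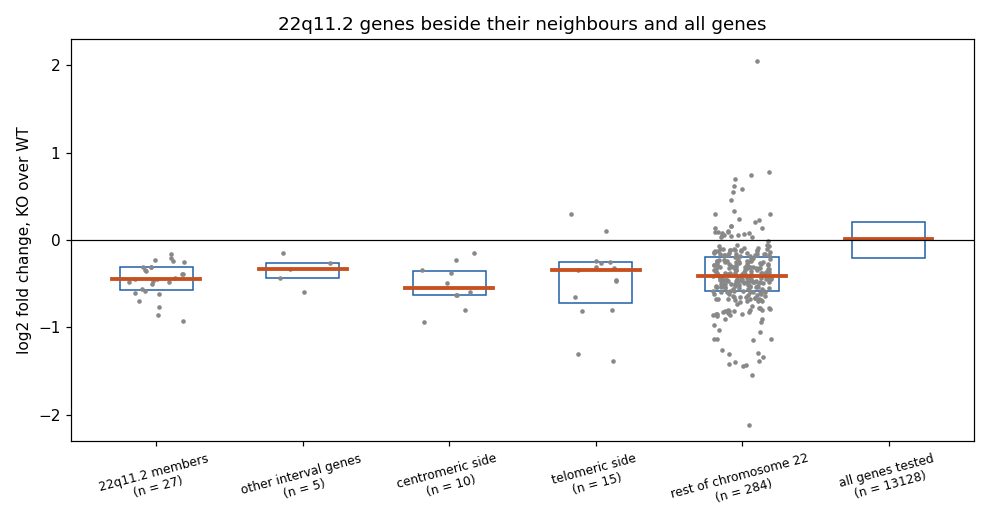
Log2 fold change of KO over WT for the 22q11.2 members, other genes of the interval, its centromeric and telomeric sides, the rest of chromosome 22 and all genes tested. Points are genes (not drawn for all genes), boxes span the quartiles and orange lines are medians, at -0.45 for the members and 0.01 for all genes.

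Genes elsewhere whose products work with a member, also listed with earlier results known, were measured in the same fit. Of 30 such partners 28 were measured well enough. Of these, 24 lie outside chromosomes 16 and 22 and were tested: 3 fell, 2 rose and 19 did not pass the test, with a median log2 fold change of -0.04, against 12.1% lower and 8.79% higher of all genes. The other 4 lie on chromosomes 16 and 22, whose lower level was already known, and are described with no test. ASF1A had 0 counts in every library and PRODH2 at most 2. Whether ASF1A RNA was absent or was not counted cannot be told from this table.

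The 4 partners on chromosomes 16 and 22 had a median log2 fold change of -0.50. UBN1, on chromosome 16, and CABIN1, on chromosome 22, encode partners of HIRA in the H3.3 chaperone complex. UBN1 had 85.5 and 77.6 CPM in WT and 53.6 and 50.6 CPM in KO (log2 fold change -0.64, SE 0.09). CABIN1 had 225 and 232 CPM in WT and 165 and 157 CPM in KO (log2 fold change -0.51, SE 0.07). RANGAP1, the GTPase activator of RAN and also on chromosome 22, stood at 247 ± 7.61 CPM in WT and 176 ± 1.82 CPM in KO (SD, n = 2), a log2 fold change of -0.49. TXN2, the mitochondrial thioredoxin that TXNRD2 reduces, again on chromosome 22, stood at 97.3 ± 5.93 and 78.7 ± 1.59 CPM (log2 fold change -0.31).

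On other chromosomes the partners of the members mostly did not pass the test. DROSHA, the RNase that DGCR8 holds in the Microprocessor, had 189 and 171 CPM in WT and 186 and 188 CPM in KO (log2 fold change 0.06, SE 0.07, edgeR adjusted p = 0.595, with a range of 0.133 to 0.747 over the alternatives with all libraries, given likewise for the genes that follow). CUL3, the scaffold for LZTR1 and KLHL22, differed by 0.04 on the log2 scale (SE 0.08, adjusted p = 0.753), and CRK, the paralog of CRKL, by -0.04 (adjusted p = 0.744). VCP, the segregase that UFD1L serves, fell from 186 ± 4.72 to 152 ± 5.84 CPM (SD, n = 2; log2 fold change -0.29, SE 0.07, edgeR adjusted p = 0.00286, 0.000277 to 0.0238). NPLOC4, which binds VCP together with UFD1L, differed by -0.14 on the log2 scale (adjusted p = 0.119). VAMP8, the vesicle SNARE that pairs with SNAP29, fell the most, from 109 and 117 CPM in WT to 51.2 and 47.4 CPM in KO (log2 fold change -1.20, SE 0.09, edgeR adjusted p = 3.2e-10, 4.98e-36 to 1.88e-07). TTC7B, a subunit of the PI4KA complex, rose from 94.4 ± 0.228 to 117 ± 2.26 CPM (log2 fold change 0.31, SE 0.08, edgeR adjusted p = 0.00487, 0.000316 to 0.0208).

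In the RAN cycle 1 partner rose and 1 fell. RAN, the GTPase of nuclear transport, rose from 631 and 606 CPM in WT to 674 and 721 CPM in KO (log2 fold change 0.17, SE 0.06, edgeR adjusted p = 0.0381, 0.00148 to 0.0661 over the alternatives with all libraries). That call was lost when TMM factors came from genes outside chromosomes 16 and 22 (0.0661), without KO replicate 2 (0.26) and without WT replicate 2 (0.183). RCC1, its exchange factor, fell from 136 and 139 CPM to 102 and 112 CPM (log2 fold change -0.36, SE 0.08, edgeR adjusted p = 0.00122, 6.63e-05 to 0.00755).

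**Figure D5:**
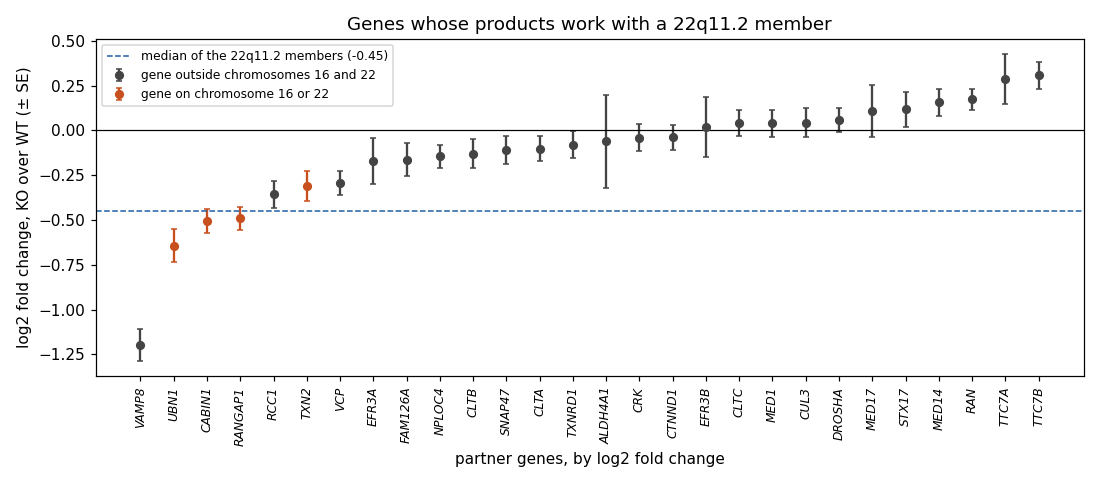
Log2 fold change of KO over WT, with bars of 1 standard error, for the 28 measured genes whose products work with a 22q11.2 member, ordered by value. Orange marks the 4 genes on chromosomes 16 and 22, the dashed line is the members' median of -0.45, and VAMP8 is lowest at -1.20.

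Ratios of a member to its partner within a library need no scaling between libraries. They are a description, since they rest on the members' values and were formed after those were seen. Of 13 pairs, the ratio was lower in KO without overlap in 9, higher in 1 and overlapping in 3. Both KO libraries lay below both WT libraries in every tested member by itself, against 30.0% of all genes tested. The same share over other pairs of genes was not counted, so nothing is read from these counts. Values are given for 6 of the 13 pairs. DGCR8 counts per DROSHA count were 0.514 and 0.549 in WT and 0.416 and 0.446 in KO. RANBP1 counts per RAN count were 0.641 and 0.620 in WT and 0.458 and 0.426 in KO. LZTR1 counts per CUL3 count were 0.655 and 0.689 in WT and 0.446 and 0.493 in KO. In these 3 pairs the partner lies outside chromosomes 16 and 22 and the member took the smaller place in KO. HIRA counts per CABIN1 count, both on chromosome 22, were 0.621 and 0.663 in WT and 0.649 and 0.699 in KO, so the genotypes overlapped. HIRA counts per UBN1 count were 1.63 and 1.98 in WT and 2.00 and 2.17 in KO, higher in KO. UFD1L counts per VCP count overlapped as well, at 0.331 and 0.291 in WT and 0.309 and 0.303 in KO. TXNRD2 counts per TXNRD1 count also overlapped, and TXNRD1 lies outside chromosomes 16 and 22.

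The members together took a smaller share of the KO libraries. They held 0.223% of all counts in WT replicate 1 (95% Wilson interval 0.219% to 0.226%) and 0.218% in WT replicate 2 (0.215% to 0.220%). In KO they held 0.179% in replicate 1 (0.176% to 0.181%) and 0.179% in replicate 2 (0.177% to 0.182%). The shares of the 2 replicates lay close together in each genotype, and the log2 ratio of KO to WT was -0.30, smaller than the members' median of -0.45. The difference between these values includes the scaling, since with TMM-scaled library sizes the log2 ratio of the shares was -0.38. These intervals cover counting error only. With 2 libraries per genotype an exact permutation test of such a share cannot go below p = 0.333.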

How the data were processed

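For 2 WT and 2 THUMPD1 KO libraries of total RNA, the authors deposited a table of raw read counts by gene symbol, without normalization. The study's methods name STAR and RSEM on GRCh38 for RNA-seq, and the submitters' processing notes name hg19. Which of these made the counts, and whether counting used strand, is not given in the sources used here, so overlapping genes are uncertain. A deposited table of the authors' own comparison (fold changes and p-values) was not used.

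A quasi-likelihood model (edgeR 4.0.16 in R 4.3.3, TMM scaling) was fitted to the 13128 genes that reached 1 CPM in 2 or more libraries. P-values were adjusted by Benjamini and Hochberg over all of these genes, and calls were made at 0.05. limma 3.58.1 and DESeq2 1.42.0 served for alternatives. The code was tested on simulated data. CPM used TMM-scaled library sizes. The common biological coefficient of variation was 6.75%. Genes were placed with GENCODE 44 (GRCh38), 17318 by symbol and 1203 by synonym, which also gave transcript GC content. The members, partners and other lists were chosen with earlier results of these data known. Members with a mean of at least 5 CPM (26 of 27 tested) were described one by one by role. MAFF and SEZ6L, named at the ends of a range, were chosen after their values were seen. Replicates differed beyond counting noise (chi-square per degree of freedom 4.08 in WT and 6.90 in KO), and they were fitted as separate libraries. This does not show that they came from separate cultures. Same-numbered libraries did not deviate together (r 0.03).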

Additional observations from a re-analysis of the deposited data

How the results depend on the processing

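No member changed direction under any alternative tried, and of the values of single members 280 kept their side of the threshold and 44 lost it. Of the partners, 9 that did not pass the test changed sign (log2 fold changes). With 1 library left out the values ran from -0.016 to 0.13 in DROSHA, -0.042 to 0.125 in CUL3, -0.039 to 0.074 in EFR3B, -0.071 to 0.153 in MED1, -0.059 to 0.333 in MED17, -0.109 to 0.025 in CRK, -0.09 to 0.009 in CTNND1 and -0.444 to 0.232 in ALDH4A1. With library size alone TXNRD1 was at 0.005, CRK at 0.044, CTNND1 at 0.045 and ALDH4A1 at 0.025, with limma-voom CRK was at 0.021 and CTNND1 at 0.026, and with TMM factors from outside genes EFR3B was at -0.003. The cause was not tested. The 2748 genes called numbered 1755 by DESeq2, 1595 under a stricter adjusted p of 0.01 and 1620 to 2591 with 1 library left out. The 22 members called lower became 14 with library size alone, 14 at an adjusted p of 0.01 and 14 to 18 with 1 library left out. The members' median of -0.45 became -0.47 with TMM factors from genes outside chromosomes 16 and 22, -0.37 with library size alone, -0.40 with limma-voom and quantile normalization, -0.42 with upper quartile scaling, -0.37 with the GC trend removed and -0.43 to -0.41 with 1 library left out. Library size alone moved the median of all genes from 0.01 to 0.09. The log2 ratio of the members' share became -0.32 without chromosomes 16 and 22 in the total and -0.38 with TMM-scaled totals. The replicate numbers share only a number: with a replicate block 3222 genes and 22 members were called, and the members' median was -0.45. Of the calls on partners, that of RAN was lost as given above, and RAN was not the only call lost with 1 library left out. A call of MED14 was gained, at adjusted p = 0.0169 with library size alone and 0.0378 with limma-voom (edgeR 0.145 as reported). With 1 library left out the log2 fold change of MED14 ran from 0.035 to 0.281. With a lone library left in a genotype, that library was assumed to vary like the other group. Depth limits members with few counts, PRODH foremost.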
